A study of Mus musculus with 2 samples.

Results

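The ureteric mesenchyme transcription factors described here are 10 genes, Tbx18, Tbx2, Tbx3, Tshz2, Tshz3, Sox9, Tcf21, Gata6, Foxd1 and Osr1. They were found by gene name on the array, which holds probes for 29875 genes. All 10 genes were present, with 11 probes among 39429, and Tshz2 alone had a second probe. RNA of dissected mouse ureters (NMRI strain, E14.5) was hybridised to 2 two-colour Agilent arrays. Knockout embryos carried Cre and floxed Smad4, labelled Pax-cre/+;Smad4(fl/fl), and the series title writes the driver as Pax2-cre and the affected tissue as UE, taken here as the ureteric epithelium. Control embryos were labelled Smad4(fl/?), with no Cre named and the second allele not given. On either array 1 knockout sample was set against 1 control sample, with 150 ng of RNA as input. The embryos of replicate 1 are given as female, with Cy3 for the knockout and Cy5 for the control, while those of replicate 2 are given as male, with the dyes exchanged. How many embryos were pooled is not stated. The labelled sex differs, so the 2 arrays hold different embryos, and biological and technical parts of the spread between them cannot be separated.

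The ureter forms from an epithelial tube and a sleeve of mesenchyme around it. The epithelium sends SHH and WNT signals to the mesenchyme, whose inner cells then produce BMP4, switch on the co-activator Myocd and become smooth muscle, while outer cells become fibroblasts. Transcription factors mark and direct these steps in the mouse. TBX18 sets up the ureteric mesenchyme, TBX2 and TBX3 act in it as repressors downstream of WNT signals, TSHZ3 is needed for smooth muscle differentiation, GATA6 is known from smooth muscle, and SOX9 is held in the undifferentiated cells and limits the activity of myocardin together with TSHZ3. TCF21, FOXD1 and OSR1 are better known from the kidney and from the mesoderm that precedes it. The RNA came from whole ureters, so the cells each reading comes from are not known here.

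None of the 10 factors passed the test between labelled knockout and labelled control. The test was limma on the log2 ratios of the 2 arrays against 0, with Benjamini-Hochberg adjustment over 20104 genes, and the call was an adjusted p under 0.05. It called 0.328% of all genes, made up of 0.229% with a ratio above 0 (higher in labelled knockout) and 0.0995% with one below 0. The lowest adjusted p among the 10 was 0.810, for Osr1. By size, none of the 10 reached 1.5-fold with the same sign on both arrays, against 0.264% of all genes higher in labelled knockout by that rule and 0.104% higher in labelled control. Mean differences ran from 1.25-fold lower in labelled knockout for Sox9 to 1.27-fold higher for Osr1. The 95% moderated intervals of the 10 genes together spanned 1.54-fold lower to 1.53-fold higher in labelled knockout. These intervals and all p-values rest on a variance shared over genes, which 2 arrays determine poorly, so the intervals may be too narrow. In bulk tissue, fewer cells of a type and less RNA per cell cannot be told apart.

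The labels set the direction of every ratio given here, labelled knockout over labelled control. The authors' deposited table, read in the order of its titles, runs the opposite way on both arrays. For Osr1 that table gives signed folds of -1.36 on replicate 1 and -1.20 on replicate 2. Smad4 itself did not pass (adjusted p = 1.00). Its 2 probes read -0.58 and -0.0921 on replicate 1 and -0.0813 and -0.33 on replicate 2. Whether these probes lie in the deleted part was not determined, so they check no label. The sex labels were read from the Y-linked gene Ddx3y, at 9.04 and 12.42 in labelled knockout and 7.99 and 12.21 in labelled control on replicates 1 and 2, and from Xist of the inactive X. On replicate 2 Xist was at 8.38 in labelled knockout and 9.95 in labelled control, against 12.09 in labelled control on replicate 1. Xist was thus higher on the array labelled female and Ddx3y on the array labelled male, and on that male array Xist was higher in labelled control than in labelled knockout. All spots of the 11 probes were well above background in all 4 channels and none was saturated. General mesenchyme (12 of 12 genes) and ureter epithelium markers (15 of 15) were measured in these samples, as was smooth muscle (17 of 20).

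The probes are 60-base oligonucleotides fixed to the array. By the array's own mm9 coordinates they lie at chr9:87599514-87599573 for Tbx18, chr11:85655391-85655450 for Tbx2, chr5:120134511-120134570 for Tbx3, chr2:169713711-169713770 for the brighter Tshz2 probe, chr7:37557872-37557931 for Tshz3, chr11:112648809-112648868 for Sox9, chr13:99126452-99126511 for Foxd1 and chr12:9587390-9587449 for Osr1. The Tcf21 probe and the dimmer Tshz2 probe are shown because the Tcf21 reading kept its sign on both arrays and the Tshz2 probe read differently on replicate 1 from the brighter one. Capitals mark the whole codons of the single forward reading frame without a stop codon. The Tcf21 probe lies at mm9 chr10:22537563-22537622 on the minus strand and the Tshz2 probe at mm9 chr2:169711933-169711992 on the plus strand. No gene models of mm9 were used, so exons and UTRs are not assigned.
Tcf21 probe: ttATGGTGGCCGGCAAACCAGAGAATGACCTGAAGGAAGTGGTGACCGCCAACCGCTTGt
Tshz2 probe: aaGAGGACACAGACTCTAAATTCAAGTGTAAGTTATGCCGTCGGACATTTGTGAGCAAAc

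**Figure D1:**
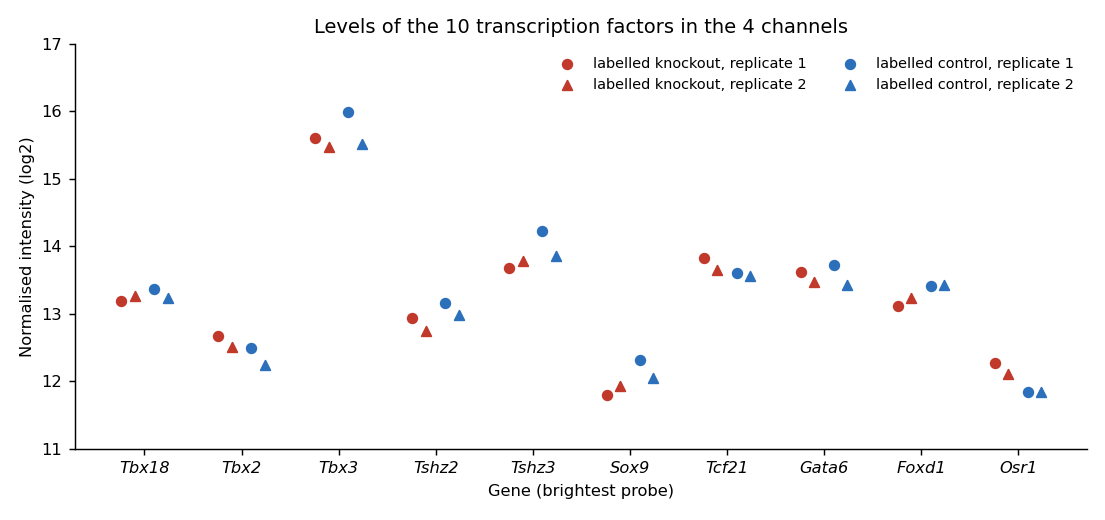
Normalised log2 intensity of the brightest probe of each of the 10 genes in labelled knockout (red, left) and labelled control (blue, right), 1 point per channel, circles for replicate 1 and triangles for replicate 2; levels of different genes cannot be compared. Sox9, Tshz2, Tshz3 and Foxd1 lie lower in both labelled knockout channels than in both labelled control channels, and Tbx2, Tcf21 and Osr1 lie higher.

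Tbx18, Tbx2 and Tbx3 belong to the T-box family and did not share a direction. Tbx18, the factor that defines the ureteric mesenchyme, had normalised log2 intensities of 13.18 and 13.27 in labelled knockout on replicates 1 and 2, against 13.36 and 13.23 in labelled control. The groups overlapped, and the ratio was -0.18 on replicate 1 and 0.0370 on replicate 2. Its mean of -0.0705 ± 0.15 (SD, n = 2 arrays) had an interval from -0.35 to 0.20. Tbx18 was one of the 2 factors whose sign differed between the arrays.

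Tbx2 was at 12.68 and 12.52 in labelled knockout, against 12.50 and 12.25 in labelled control. Both labelled knockout channels were above both labelled control channels. Its ratio was 0.17 on replicate 1 and 0.27 on replicate 2, and the mean was 0.22 ± 0.0674 (SD, n = 2), with an interval from -0.0442 to 0.49. Tbx3, which overlaps with Tbx2 in function in this tissue, was at 15.61 and 15.47 in labelled knockout, against 15.99 and 15.52 in labelled control. Replicate 1 of the labelled control stood above the other channels, which lay close together. The ratio of Tbx3 was -0.38 on replicate 1 and -0.0437 on replicate 2, and the mean was -0.21 ± 0.24 (SD, n = 2). The ratios of Tbx2 and Tbx3 thus had opposite signs on each array, without either passing the test (adjusted p = 1.00 for each in limma). On replicate 2, however, the Tbx3 ratio was nearer to 0 than its spot SD of 0.0595, with spots on both sides of 0. The difference between these genes was not tested.

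The teashirt zinc finger genes Tshz2 and Tshz3 both read lower in labelled knockout. Tshz3 was at 13.68 and 13.78 in labelled knockout, against 14.22 and 13.86 in labelled control, with no overlap. Its ratio was -0.54 on replicate 1 and -0.0821 on replicate 2, and the mean was -0.31 ± 0.32 (SD, n = 2). That size rested on replicate 1. Tshz2 was at 12.93 and 12.75 in labelled knockout, against 13.17 and 12.99 in labelled control. Its ratios were nearly equal on the arrays, -0.23 and -0.24, with a mean of -0.23 ± 0.00250 (SD, n = 2) and an interval from -0.50 to 0.0299. The dimmer Tshz2 probe, printed above, was at 10.05 and 10.11 in labelled knockout and 10.58 and 10.10 in labelled control. It read -0.52 on replicate 1 and 0.00916 on replicate 2, a pattern nearer to that of Tshz3 than to that of the brighter Tshz2 probe. The means of the 2 Tshz2 probes, -0.23 and -0.26, were alike. Tshz1, the remaining gene of the family, did not pass either, with -0.50 on replicate 1 and -0.14 on replicate 2.

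Sox9 gave the lowest mean of the 10. It was at 11.80 and 11.93 in labelled knockout, against 12.32 and 12.05 in labelled control, with no overlap. The ratio was -0.52 on replicate 1 and -0.11 on replicate 2, and the mean was -0.32 ± 0.29 (SD, n = 2), with an interval from -0.62 to -0.0166. The unadjusted p was 0.0405 and the adjusted p 1.00 in limma. Sox9 is also active in cartilage, in gonads and in the tips of the ureteric bud. Of 9 cartilage genes 7 were measured, and none passed. Col2a1, the collagen of cartilage that SOX9 activates, read -0.74 on replicate 1 and 0.38 on replicate 2, and Col9a1 -0.32 and -0.29. The cartilage markers Matn1 and Comp, and Amh, which SOX9 activates in the testis, did not pass the filter on dim probes. The summed normalised intensity of the 7 cartilage genes was 90735 and 93619 in labelled knockout, against 119363 and 106880 in labelled control. Most of each sum came from Sox5, whose probe was the brightest of the 7. Sox5 was at 16.06 and 16.13 in labelled knockout, against 16.47 and 16.34 in labelled control, so the sums say little of the other cartilage genes. The part of the cartilage genes in the Sox9 reading was not tested.

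Gata6, a zinc finger factor known from smooth muscle and from visceral mesoderm, was at 13.61 and 13.47 in labelled knockout, against 13.72 and 13.43 in labelled control. Its probe lies at mm9 chr18:11085039-11085097. The groups overlapped, and the ratio was -0.11 on replicate 1 and 0.0431 on replicate 2. Its mean of -0.0332 ± 0.11 (SD, n = 2) was the nearest to 0 of the 10, with an interval from -0.30 to 0.24. Myocd, the co-activator of smooth muscle genes, read -0.68 on replicate 1 and -0.20 on replicate 2, a mean of -0.44 ± 0.33 (adjusted p = 0.610). The order of Gata6, Tshz3 and Myocd by size was the same on each array, with Gata6 nearest to 0.

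Tcf21, a basic helix-loop-helix factor of visceral mesenchyme and kidney stroma, was at 13.82 and 13.65 in labelled knockout, against 13.60 and 13.56 in labelled control. Both labelled knockout channels were higher, by 0.22 on replicate 1 and 0.0919 on replicate 2, and the mean was 0.16 ± 0.0893 (SD, n = 2). Foxd1, a forkhead factor of kidney stroma progenitors, was at 13.12 and 13.23 in labelled knockout, against 13.41 and 13.42 in labelled control. Both labelled knockout channels were lower, with ratios of -0.29 and -0.19 and a mean of -0.24 ± 0.0680 (SD, n = 2). Tcf21 and Foxd1 thus differed in direction although both are known from kidney stroma.

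Osr1, a zinc finger factor of the intermediate mesoderm and nephron progenitors, gave the highest mean of the 10. It was at 12.27 and 12.11 in labelled knockout, against 11.85 and 11.85 in labelled control. The labelled control channels were nearly equal and both labelled knockout channels stood above them. The ratio was 0.42 on replicate 1 and 0.27 on replicate 2, and the mean was 0.34 ± 0.11 (SD, n = 2), with an interval from 0.0736 to 0.61, and an unadjusted p of 0.0176. With Sox9 and Tshz3, Osr1 was one of 3 factors with an unadjusted p under 0.05 in limma, a threshold that 4.55% of all genes passed. Osr2, its paralogue, read 0.13 and 0.23.

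Of 18 genes of kidney stroma and nephron progenitors, 17 were measured and none passed. Their median was -0.23 on replicate 1 and 0.0581 on replicate 2. Cited1, a co-activator of nephron progenitors, read 0.33 and 0.48 on the 2 arrays. Six2, which keeps those progenitors undifferentiated, read -0.53 and 0.35, and Smoc2 read -0.41 and -0.66. The summed normalised intensity of the 17 was 137828 and 149823 in labelled knockout, against 161377 and 167984 in labelled control. Penk and Smoc2 had the brightest probes of the list and weighed most in each sum. The 17 kidney genes did not share the direction of Osr1 as a list, and their part in the Osr1, Tcf21 and Foxd1 readings was not tested.

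**Figure D2:**
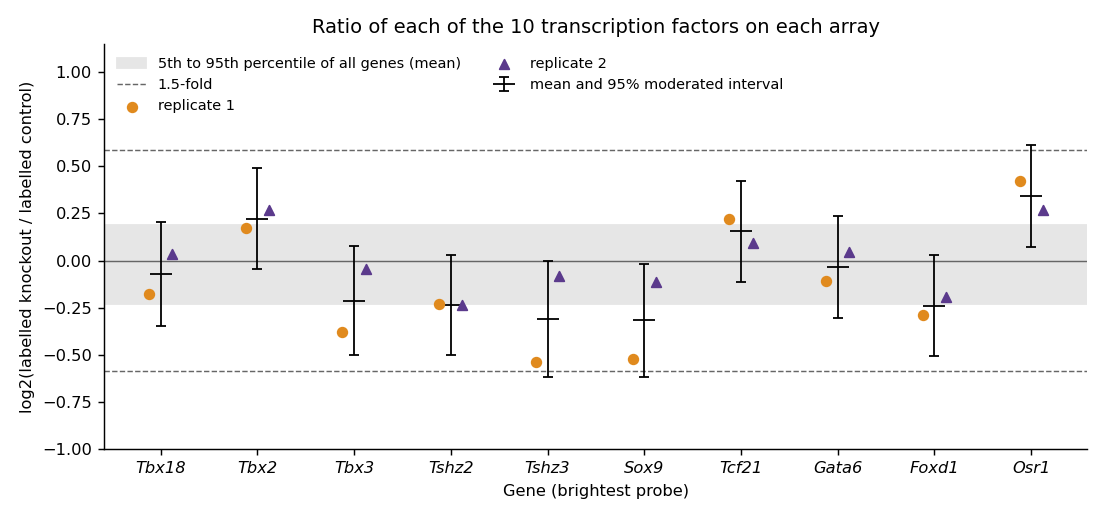
Log2 ratio of labelled knockout over labelled control for each of the 10 genes on replicate 1 (orange circles) and replicate 2 (purple triangles), with the mean and its 95% moderated interval in black. The grey band holds the 5th to 95th percentile of the mean ratio of all genes (-0.23 to 0.19), the dashed lines mark 1.5-fold, and the intervals of 3 genes (Tshz3, Sox9 and Osr1) exclude 0.

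On both arrays 5 of the 10 read below 0 (24.6% of all genes did) and 3 read above 0 (21.7% of all genes). The other 2, Tbx18 and Gata6, had opposite signs, as 53.7% of all genes had. The 10 genes are not independent replicates and share the arrays and the dye orientation. Across them, the ratios of the 2 arrays correlated with a Pearson r of 0.80 and a Spearman rho of 0.76. The values across all 20104 genes were 0.0168 and -0.0820. This comparison is unlike in brightness, since Osr1, the dimmest of the 10, lay at percentile 64.8 of all genes. In single channels, 4 of the 10 had both labelled knockout levels under both labelled control levels (15.3% of all genes) and 3 had them above (13.9% of all genes). The members were chosen with earlier results known, so these shares describe the set and test nothing.

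The ratios were closer to 0 on replicate 2 for 8 of the 10, Tbx2 and Tshz2 being the exceptions, as they were for 65.0% of all genes. On replicate 1, 7 of the 10 read below 0 (51.7% of all genes) and on replicate 2, 5 did (51.1% of all genes). Their median was -0.21 on replicate 1 and -0.0033 on replicate 2, while the median of all genes was -0.0093 and -0.0034. Of the 10, 7 had a lower ratio on replicate 1 than on replicate 2, as 50.7% of all genes had. Levels in labelled control were higher on replicate 1 than on replicate 2 for 9 of the 10 genes (51.1% of all genes), by 0.47 for Tbx3, 0.36 for Tshz3 and 0.27 for Sox9. In labelled knockout the same genes differed between replicates by 0.13, -0.0970 and -0.14. For 6 of the 10 the labelled control of replicate 1 was the brightest of the 4 channels, as it was for 35.2% of all genes. Embryos, sex and dye all changed between the arrays, so which of them goes with that difference cannot be told apart.

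The repeat spots give the error within an array. Each probe was printed 4 times, and the SD of its spot ratios lay between 0.0105 and 0.0957 for the 11 probes. For 6 of the 10 genes the 2 arrays differed by more than 3 times the larger spot SD of the gene, as they did for 42.3% of all genes. The spots are repeats of 1 sample, and n stays at 2 however many are read.

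**Figure D3:**
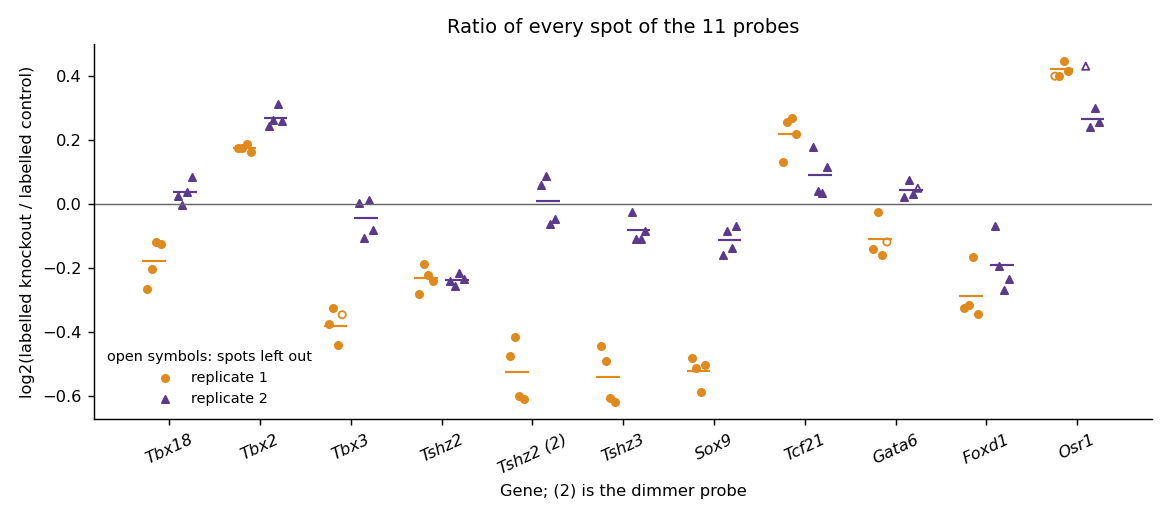
Log2 ratio of labelled knockout over labelled control for every spot of the 11 probes on replicate 1 (orange circles) and replicate 2 (purple triangles), with bars for probe means and open symbols for spots left out as outliers. The spots of Tshz3 and Sox9 form separate clusters on the 2 arrays, near -0.54 and -0.52 on replicate 1 and near -0.0821 and -0.11 on replicate 2, while those of the brighter Tshz2 probe lie together.

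Other transcription factors of mesenchyme read mostly lower in labelled knockout. Of 23 such genes all were measured and none passed, but 16 read below 0 on both arrays and none above 0 on both, where 24.6% and 21.7% of all genes did. Their median was -0.18 on replicate 1 and -0.0796 on replicate 2. The list was chosen with earlier results known and was not matched to all genes in brightness. These shares and medians therefore describe it and test nothing. Nr2f2 and Nr2f1, orphan nuclear receptors of mesenchyme, read -0.46 and -0.47 on replicate 1 and -0.20 and -0.14 on replicate 2. Ebf2 had the largest mean, -0.43 ± 0.43, from -0.13 on replicate 1 and -0.73 on replicate 2. The homeobox gene Meis1 read -0.45 on replicate 1 and -0.0668 on replicate 2. Twist1, a helix-loop-helix gene of embryonic mesenchyme, read -0.0376 and 0.0645, so that the direction was not shared by every gene of the list.

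**Figure D4:**
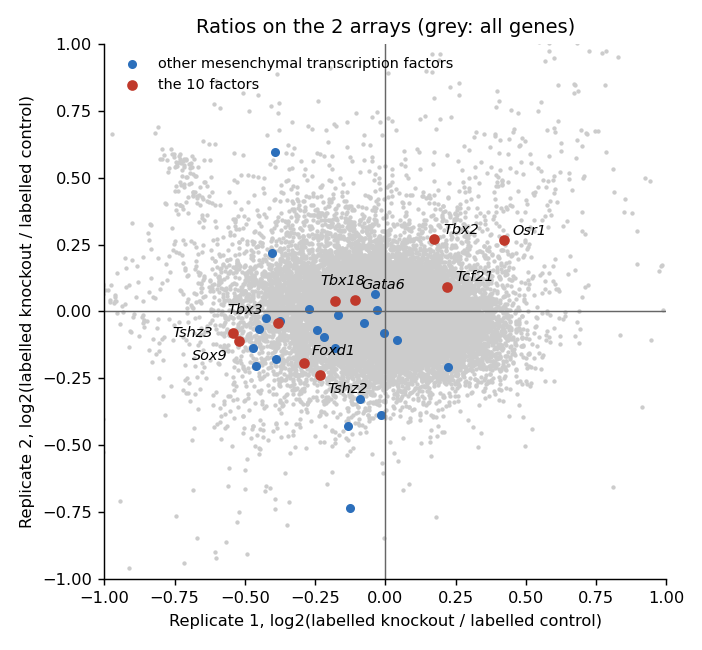
Log2 ratio of labelled knockout over labelled control on replicate 1 (horizontal) and replicate 2 (vertical) for all genes (grey), the 10 factors (red, named) and 23 other mesenchymal transcription factors (blue), with genes beyond 1 on either axis not drawn. Of the 23, 16 lie at the lower left and none at the upper right, while Tbx2, Tcf21 and Osr1 lie at the upper right.

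Marker lists of the tissue layers were summed for comparison, and the brightest probes weigh most in such sums. Of 12 general mesenchyme genes none passed. Their summed normalised intensity was 783101 and 815068 in labelled knockout, against 906070 and 840161 in labelled control, and 6 of them read below 0 on both arrays, 2 above 0 on both and 4 with opposite signs. The fibroblast collagen genes Col1a1 and Col1a2 read -0.61 and -0.91 on replicate 1 and -0.35 and 0.0989 on replicate 2. Pdgfrb, a receptor of perivascular and stromal cells, read -0.56 and -0.0886, and Pdgfra, another mesenchymal receptor, -0.0256 and -0.0207. The proteoglycan genes Dcn and Lum were above 0 on both arrays, with 0.39 and 0.0239 on replicate 1 and 0.19 and 0.0480 on replicate 2. Of 15 epithelium genes 2 passed, both higher in labelled knockout, and 13 did not. They were the uroplakin genes Upk3a, with 1.43 on replicate 1 and 1.68 on replicate 2, and Upk1b, with 1.21 and 1.40. The summed intensity of the 15 was 281159 and 246901 in labelled knockout, against 239423 and 221199 in labelled control, and 12 read above 0 on both arrays. The part of the proportion of mesenchyme to epithelium in the readings of the 10 factors was not tested.

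Genes of the signals that reach the ureteric mesenchyme read mostly below 0. Of 22 such genes none passed, 12 read below 0 on both arrays and 3 above 0 on both. Their median was -0.27 on replicate 1 and -0.0471 on replicate 2. Foxf1, a forkhead target of SHH in the mesenchyme, had a mean of -0.70 ± 0.43 (SD, n = 2, limma adjusted p = 0.163) and read -0.40 on replicate 2, and Foxl1, another hedgehog-responsive forkhead gene, read -0.91 and -0.0786 on the 2 arrays. Gli1, a transcriptional target of the pathway, read -0.36 and -0.35, and Gli2, which carries the signal to the nucleus, -0.28 and -0.27. The SHH ligand gene read -0.16 and -0.21, from a dim probe at 7.86 and 7.75 in labelled knockout. Gli3 and Foxf2 of the same list changed sign, with -0.58 and -0.47 on replicate 1 and 0.0661 and 0.19 on replicate 2. Foxf1 and Foxl1 were farther from 0 on replicate 1, as 65.0% of all genes were, while Gli1 and Gli2 were nearly equal on the arrays.

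In the WNT branch the genes did not share a direction. The epithelial ligand genes Wnt7b and Wnt9b read 0.48 and 0.15 on replicate 1 and 0.11 and 0.34 on replicate 2. The receptor gene Fzd1 read -0.44 and -0.22. Axin2, a feedback target of canonical WNT signals, read -0.55 on replicate 1 and 0.0304 on replicate 2. Aldh1a1, an enzyme of retinoic acid synthesis, read 0.34 and 0.56, on the side of Tbx2 and Osr1. The other retinoic acid genes of the list did not share that direction. Aldh1a2, also of synthesis, read -0.20 and -0.0015, and the receptor genes Rara and Rarb -0.25 and 0.15 on replicate 1 and -0.26 and -0.16 on replicate 2. None of these passed the test.

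Smooth muscle was represented by 20 genes, of which 17 were measured and none passed. The list median was -0.16 on replicate 1 and 0.0752 on replicate 2. On both arrays 4 were above and 5 below 0. Tagln and Myh11, contractile genes, read 0.12 and 0.0428 on replicate 1 and 0.15 and 0.20 on replicate 2. Myh11 was dim, at 7.72 and 7.51 in labelled knockout. Tpm1 and Tpm2, also contractile genes, read -0.0741 and -0.16 on replicate 1 and -0.0710 and -0.0848 on replicate 2. Actg2, Mylk, Smtn and Cnn1 had opposite signs on the arrays. Myocd, an activator of contractile genes, was below 0 on both arrays. Srf, the DNA-binding partner of myocardin, read -0.51 and 0.0402. Tnnt2, a troponin gene, read 0.58 and 0.15, and Pcp4, a calmodulin regulator, -0.39 and 0.89.

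TBX2 and TBX3 are known as repressors of cell cycle inhibitors and of WNT and BMP antagonists. Of 12 genes reported under them in mouse organs, 11 were measured and none passed, with 2 above and 3 below 0 on both arrays. Cdkn1a, which encodes the inhibitor p21, read 0.26 and 0.45. Cdkn1b, another inhibitor gene, read -0.41 and 0.24. Shisa3, a WNT and FGF antagonist gene, read -0.48 and -0.19, and Cdh1, which encodes the epithelial cadherin and so also marks epithelium, 0.44 and 0.19. The list held no common direction beside Tbx2 and Tbx3, whose own ratios had opposite signs, with Tbx3 close to 0 on replicate 2.

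Paralogues of the 10 factors were also without a call. Of 28 listed genes 27 were found by symbol and 20 passed the filter on dim probes, and none of these passed the test. The list median was -0.13 on replicate 1 and 0.0349 on replicate 2. On both arrays 4 were above and 4 below 0. Gata1, a blood cell factor, read 0.23 and 0.48, and Foxd2, a paralogue of Foxd1, -0.35 and -0.11. Tbx4, a T-box gene of limb and lung mesenchyme, read -0.0393 and 0.34. Tbx5, Tbx15, Tbx19, Tbx21, Eomes, Msc and Gata4 did not pass the filter.

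**Figure D5:**
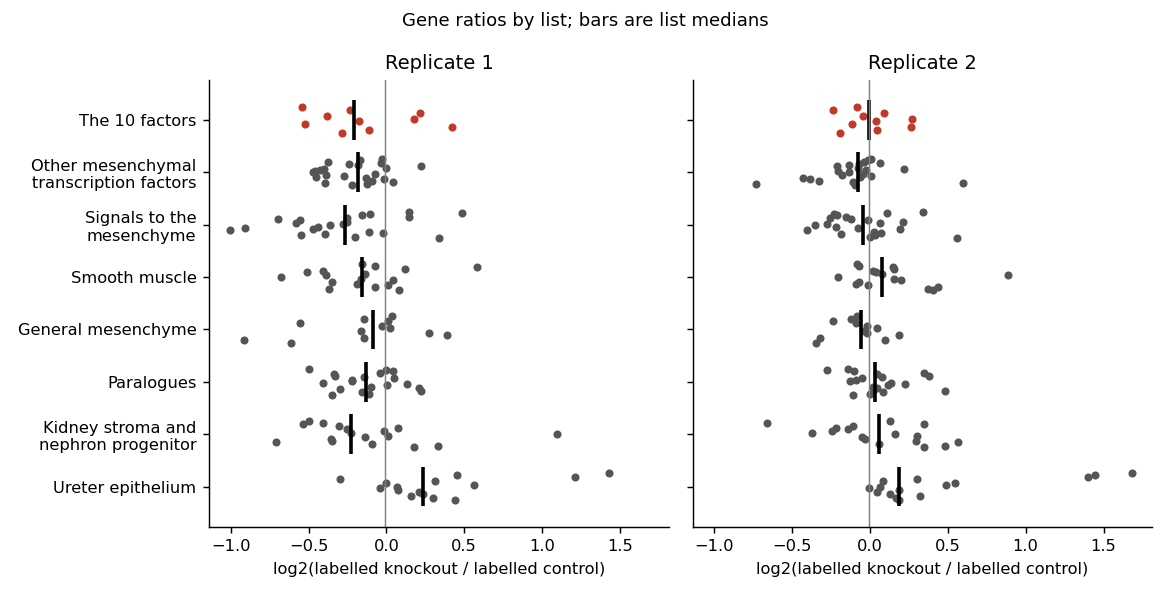
Log2 ratio of labelled knockout over labelled control of each gene (points) in 8 lists on replicate 1 (left) and replicate 2 (right), with list medians as bars and the median of all genes as a thin line. The medians of the 10 factors are -0.21 and -0.0033, those of ureter epithelium are 0.24 and 0.19, and the other mesenchymal transcription factors have medians of -0.18 and -0.0796.

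Promoter sequence was available for 5 of the 10 genes, Tbx18, Tshz2, Tshz3, Tcf21 and Foxd1, from RefSeq on GRCm38.p6. The 250 bases before the start were searched on both strands. The letters searched were CAGAC (bound by SMADs), GGCGCC (the GC-rich element of BMP SMADs), GACCACCCA (GLI), CTTTGAT (TCF/LEF), AGGTGTGA (T-box) and TATAAA (the TATA box). CAGAC or its reverse complement occurred 3 times before Tcf21 and 1 time each before Tbx18 and Foxd1, and 42.2% of 32851 promoters hold it. No match to the other letters was found in the 5 windows, and 9.59% of all promoters hold GGCGCC, 0.225% GACCACCCA, 3.21% CTTTGAT, 1.12% AGGTGTGA and 12.4% TATAAA. Tcf21 and Foxd1 are shown because they hold CAGAC or its reverse complement and kept their sign on both arrays, in opposite directions. Capitals mark those letters. The windows are GRCm38.p6 chr10:22820144-22820393, minus strand, and chr13:98353995-98354244, plus strand.
Tcf21 promoter: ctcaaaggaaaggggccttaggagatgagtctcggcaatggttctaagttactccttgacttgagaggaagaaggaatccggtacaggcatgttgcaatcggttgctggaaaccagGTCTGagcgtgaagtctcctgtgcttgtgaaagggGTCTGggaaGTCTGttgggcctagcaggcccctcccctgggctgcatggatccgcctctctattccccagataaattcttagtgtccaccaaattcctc
Foxd1 promoter: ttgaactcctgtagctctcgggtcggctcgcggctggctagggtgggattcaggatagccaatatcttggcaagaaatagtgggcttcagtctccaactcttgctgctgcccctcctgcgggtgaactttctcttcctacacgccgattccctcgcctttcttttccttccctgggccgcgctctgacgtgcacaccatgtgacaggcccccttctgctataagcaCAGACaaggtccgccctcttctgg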

How the data were processed

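Spot intensity was read by the authors with Agilent Feature Extraction 10.7.3.1, per the submitters' processing notes and the file headers, which gives a mean signal and a local background for both dyes. Agilent's processed intensity and its log10 ratio, red divided by green, are deposited beside them. A further table of the authors holds a score per probe, a signed fold whose median is 1. Its correlation with red over green was 0.822 for replicate 1 and -0.739 for replicate 2, which by the labels' dyes is control over knockout. How it was scaled is not stated, and it served as an alternative.

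Background was corrected by normexp (offset 50), loess was fitted within arrays (control spots weighted 0), and outlier spots (3.52% and 3.66%) were left out. Spots of a probe were averaged. A probe was kept (26522 in all) if both arrays had 2 or more spots well above background in labelled knockout, or both in labelled control, and a gene was its brightest probe. On replicates 1 and 2, 69.1% and 66.5% of probes had that many such spots in labelled knockout and 67.6% and 68.6% in labelled control. Single-channel levels were set to a common scale by Aquantile. Log2 ratios of the 2 arrays entered limma 3.58.1, run in R 4.3.3, with 1 residual and 9.21 prior degrees of freedom, adjusted by Benjamini-Hochberg over 20104 genes. The fit was tested on simulated data, where it found the larger planted changes but made more false calls than its threshold allows, because 1 residual degree of freedom leaves the prior imprecise, so adjusted p-values may be too small. The number of arrays, 2, limits the precision.

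Names came from the files and RefSeq (28328 probes by accession, 3400 by symbol, 243 by an older symbol). The 10 genes and the 13 other lists were chosen with earlier results of these data known. Named are the 10 genes, Smad4, and in each list those that passed and up to 3 with the largest mean, of which some are not reported here. Others, such as Six2, Gli1, Tagln or Twist1, were chosen after their values were seen.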

Additional observations from a re-analysis of the deposited data

How the results depend on the processing

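None of the 10 factors was called in limma under any of 11 alternatives that used both arrays, and none reached 1.5-fold with the same sign on both arrays. Between 1 and 4 of the 10 had an unadjusted p under 0.05 there. In all of them 7 factors had a mean below 0 and 3 above, but 5 of the 11 (Aquantile, both filters on dim probes, the trend and the unpaired channels) left the means of the 10 as they were by construction, and the mean over probes could move Tshz2 alone. The median of the 10 ran from -0.14 to -0.11 under these alternatives, and was -0.0033 with replicate 2 alone and -0.21 with replicate 1 alone, where no test is possible. Tbx18 and Gata6 changed sign with replicate 2 alone (0.0370 and 0.0431). The lowest adjusted p over the alternatives was 0.518 for Osr1 and 0.756 for Sox9.

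The count of called genes, 66, depended on the processing. It was 194 with Agilent's processed signals, 191 with the authors' deposited values, 156 with a variance prior with trend, 131 with an offset of 0, 115 with no background correction and 26 with 4 unpaired channels. In limma it was 0 with median centring and 0 with no filter on dim probes, where 347 and 1097 genes had an unadjusted p under 0.05. The cause was not tested. Pairing within an array is part of the design, and 4 unpaired channels drop it. All probes of the 10 genes were well above background.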

Other observations

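Some genes of nephron progenitors read with opposite signs on the 2 arrays, brighter in Cy5 on each. In the list of 17 kidney stroma and nephron progenitor genes 6 had opposite signs, and Cited1 read 0.33 and 0.48. Eya1, a transcriptional co-activator of kidney mesenchyme, read -0.71 on replicate 1 and 0.57 on replicate 2, Six2 -0.53 and 0.35, and Gdnf, the growth factor gene that attracts the ureteric bud, -0.35 and 0.30. Of the 10 factors, Tbx18 and Gata6 were brighter in Cy5 on both arrays and none was brighter in Cy3 on both, where 27.1% and 26.5% of all genes were. Of 10 genes of neural crest, neurons and glia 8 had opposite signs, as 53.7% of all genes had. The list medians were -0.43 on replicate 1 and 0.61 on replicate 2. Neuronal Tubb3 read -0.72 and 1.08, and Th, an enzyme of catecholamine synthesis, -0.0172 and 0.71. These genes were picked after their values were seen, and embryos, sex and dye cannot be told apart in them.

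Dhh, a hedgehog ligand gene of Sertoli and Schwann cells, read -0.83 on replicate 1 and -0.19 on replicate 2 without passing (adjusted p = 0.533). Of 5 mesothelium genes 3 read above 0 on both arrays and 1 below, with list medians of 0.23 and 0.10. Msln, a mesothelial gene, read 0.51 and 0.31, Lrrn4 -0.17 and -0.0814, and Upk3b, which marks mesothelium and urothelium, was called higher in labelled knockout (limma adjusted p = 0.0477). That call lay close to the threshold, and the Upk3b probe was dim, at 7.69 and 7.91 in labelled knockout and 7.09 and 6.96 in labelled control. Of 10 endothelium and macrophage genes none passed, 1 read above 0 on both arrays and 2 below, with list medians of 0.0773 and -0.0888. Cdh5, an endothelial cadherin gene, read -0.54 and -0.19, and Kdr, also endothelial, read -0.12 and -0.22. The endothelial genes Emcn, Pecam1 and Tek read 0.39, 0.25 and 0.43 on replicate 1 and -0.14, -0.0357 and -0.22 on replicate 2. The macrophage gene Adgre1 read -0.0218 and 0.54.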
